A study of Mus musculus with 19 samples.

Results

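n-TGccc7 is a nuclear tRNA gene of the mouse that carries the glycine anticodon CCC. It was followed through its fragments in sperm small RNA, counted as the sense reads of 15 to 45 nt that matched the gene, with its CCA tail added, at no more than 1 mismatch. It was 1 of 32 tRNA genes with a sequence at hand (10 nuclear and 22 mitochondrial), while RefSeq lists 408 nuclear tRNA loci in mouse, 28 of them for glycine and 6 of those with the anticodon CCC. The gene had 90822 of 711662713 reads over 19 libraries, 12847 of them in 9 PANDORA-seq libraries and 77975 in 10 traditional libraries. The sperm came from the cauda epididymis, after removal of somatic cells, of wild-type C57BL/6J males, 8 weeks old at the start, which had received daily oral gavage for 4 weeks. The exposed males were given dicyclohexyl phthalate (DCHP), a plasticizer, at 10 mg per kg body weight and the controls its corn oil vehicle, as the study's methods state. The treatment label of all 19 libraries names the DCHP gavage, so that the titles decided which libraries were called control or DCHP. There were 4 control and 5 DCHP libraries made by PANDORA-seq, and 5 control and 5 DCHP libraries made by the traditional protocol.

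Mature sperm carry fragments of transfer RNAs, called tRNA-derived small RNAs (tsRNAs), among which fragments of glycine tRNAs are typical. A tRNA ends in an added CCA, folds into arms and carries many modified bases, and such bases and the chemical groups at fragment ends can keep a fragment out of a library. In PANDORA-seq the RNA is treated with AlkB, an enzyme that removes certain methyl groups from bases, and with T4PNK, an enzyme that converts fragment ends into forms that can be ligated, before the library is made. In the traditional protocol these treatments are left out.

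The gene lies on the plus strand of GRCm38, at chr17:25875088-25875158. GENCODE places these 71 bases in exon 1 of Mettl26, inside its 5′ UTR. Bases are numbered from 1 at the first base of the gene, so that the anticodon covers bases 33 to 35, the anticodon loop bases 31 to 37, and the added CCA bases 72 to 74. Base 56 is the conserved adenosine of the T loop, a place where many tRNAs carry a methylated adenosine. The fragments below led the reads of one or the other method and are no longer than 30 bases. They are written 5′ to 3′ as DNA. The capital letter in the fragments from base 53 is base 56, and the capital in the fragment from base 4 is the first anticodon base.
bases 36 to 53 (chr17:25875123-25875140): attcttgcgacccgggtt
bases 53 to 73 (chr17:25875140-25875158 and 2 bases of the tail): tcgAttcccgggcggcgcacc
bases 53 to 73 with A56T: tcgTttcccgggcggcgcacc
bases 53 to 72 (chr17:25875140-25875158 and 1 base of the tail): tcgAttcccgggcggcgcac
bases 4 to 33 (chr17:25875091-25875120): ccgctggtgtagtggtatcatgcaagattC
A56T means that the gene has A at base 56 and the read has T.

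Libraries held 21588335 to 56506344 reads, so that the 854 to 11759 reads of n-TGccc7 in a library carried a counting error of 0.922% to 3.42%. Of all reads counted, 1 also matched another small RNA gene of the reference. Only 43 further reads ran into the bases beside the gene and 1 matched its other strand, while 24120 reads matched with exactly 2 mismatches and were not counted, 702 of them in PANDORA-seq and 23418 in traditional libraries. The limit of 1 mismatch thus left out more reads in the traditional libraries. A wider limit was not tried in the method comparisons of level and starts, while the level among exact matches is given below. The sequences of the other glycine tRNA loci were not used here, so that reads they share with n-TGccc7 cannot be told apart. The markers of the sperm itself, the hairpins Mir34b, Mir34c and Mir449a, summed to 1.38 to 11.4 reads per 1000000 total reads (RPM) in PANDORA-seq and 151 to 802 RPM in traditional libraries. The 5 hairpins of epididymal epithelium summed to 3.26 to 59.4 RPM and 684 to 5931 RPM, the 4 of muscle to 2.67 to 113 RPM and 1416 to 7190 RPM, the 4 of blood cells to 0 to 0.378 RPM and 5.47 to 168 RPM, and Mir122 of liver to 3.74 to 129 RPM and 783 to 70134 RPM. No marker was at 0 in all libraries, and the part of other cell types in the values below was not tested. Mir449a of sperm was without reads in 4 libraries and Mir133a-1 of muscle in 9. Of the blood markers, Mir144 was without reads in 5, Mir451a in 3, Mir142 in 3 and Mir223 in 2. Traditional control replicate 3 and traditional DCHP replicate 2 stood apart from their groups in where reads began, and the calls that changed without them are given with the results.

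The level of n-TGccc7 answers whether exposure or method changed how many of its fragments were read. In PANDORA-seq the 4 control libraries held 58.2, 36.6, 19.8 and 33.3 RPM, as reads per 1000000 total reads of the library. The 5 PANDORA-seq DCHP libraries held 40.9, 56.3, 31.2, 37.3 and 35.0 RPM, all within the range of the controls. In traditional libraries the controls held 222, 146, 167, 132 and 144 RPM. The traditional DCHP libraries held 164, 486, 304, 226 and 272 RPM, of which 4 lay above every control. All traditional libraries lay above all PANDORA-seq libraries. In such bulk samples, fewer cells holding a fragment and less of it per cell cannot be told apart.

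**Figure D1:**
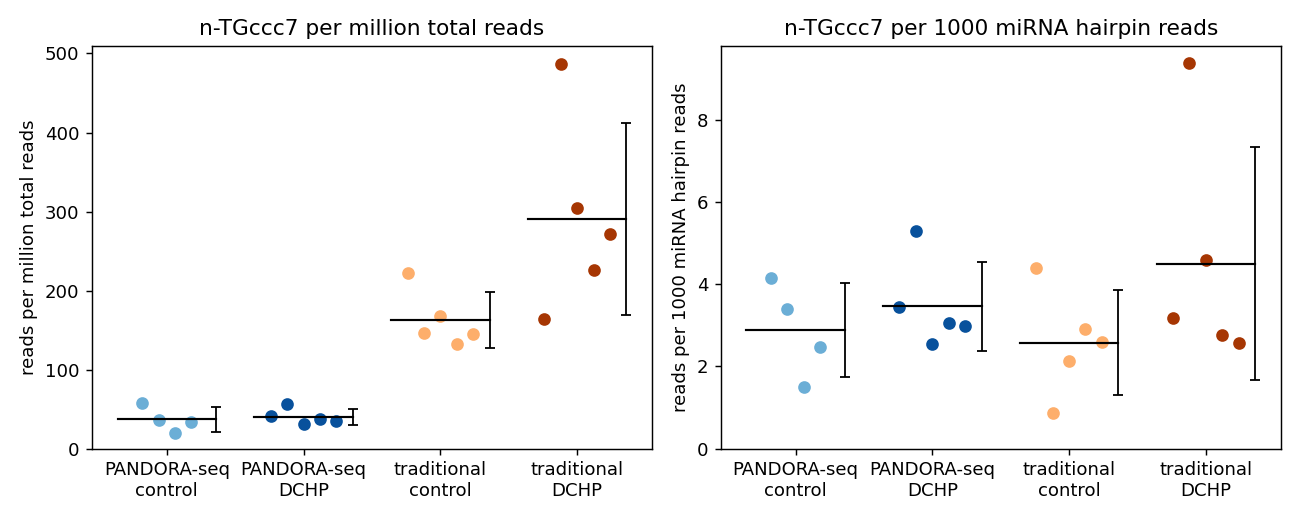
Level of n-TGccc7 in each library, per 1000000 total reads (left) and per 1000 reads of any length on miRNA hairpins (right). Points are libraries in order of replicate number, lines are group means and bars are 1 SD; the traditional libraries sit above the PANDORA-seq libraries on the left (132 to 486 against 19.8 to 58.2 RPM), and the 4 groups overlap on the right.

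Exposure did not pass the test in either method. With PANDORA-seq the mean was 40.1 RPM ± 9.70 (SD, n = 5) in DCHP and 36.9 RPM ± 15.9 (SD, n = 4) in control libraries, a 1.09-fold difference (two-sided exact permutation p = 0.746, Benjamini-Hochberg adjusted over 32 tRNA genes 0.983). With the traditional protocol it was 290 RPM ± 122 (SD, n = 5) against 162 RPM ± 35.7 (SD, n = 5), a 1.79-fold difference (exact permutation p = 0.0317, adjusted 0.208). The median fold over all 32 tRNA genes was 1.104 in PANDORA-seq and 1.39 in traditional libraries, and 0% of the 32 tRNA genes passed in either comparison (1 and 6 of them at an unadjusted p under 0.05). The 2 exposure effects, 0.12 and 0.84 on the log2 scale, differed by -0.72 (exact permutation of exposure within each method, p = 0.190). This difference was -0.41 without PANDORA-seq control replicate 1 and -0.45 without traditional DCHP replicate 2. Per tRNA read this difference was -1.57 (exact permutation p = 0.0384), with a PANDORA-seq fold of 0.434 (adjusted p = 0.102) and a traditional fold of 1.29 (adjusted p = 0.967). This denominator holds the reads on the 32 tRNA genes of the reference, n-TGccc7 included, and none of the other nuclear loci. It averaged 63704 reads in PANDORA-seq control and 174182 in PANDORA-seq DCHP libraries, and 193879 and 238849 in traditional ones.

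Between methods the level in RPM differed in both exposure groups. Control libraries held 4.40 times as much n-TGccc7 in the traditional protocol as in PANDORA-seq (exact permutation p = 0.00794, adjusted 0.0231), and DCHP libraries 7.23 times as much (exact permutation p = 0.00794, adjusted 0.0110). This was not particular to n-TGccc7, since 71.9% of the 32 tRNA genes passed in the control comparison (22 lower and 1 higher in PANDORA-seq) and 81.2% in the DCHP comparison (26 lower). Replicate numbers paired the DCHP libraries of both methods, and with the 5 pairs taken as blocks the exact sign-flip p was 0.0625, the smallest that 5 pairs allow. The direction also depended on the denominator. Per read of any length on miRNA hairpins, PANDORA-seq stood 1.12 times the traditional level in control and 0.770 times in DCHP libraries (exact permutation p = 0.722 and 0.651). Per hairpin read of 20 to 24 nt it stood 8.25 and 4.69 times as high (adjusted p = 0.0121 and 0.0141, exact permutation). Per 1000 hairpin reads of any length the libraries held 1.49 to 5.31 n-TGccc7 reads in PANDORA-seq and 0.861 to 9.37 in traditional libraries. Per 1000 hairpin reads of 20 to 24 nt they held 8.57 to 43.9 and 0.928 to 10.7. Hairpin reads of other lengths thus made up more of the any-length denominator in PANDORA-seq, so that it is not a count of miRNAs alike in both methods.

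The part of the tRNA that was read differed between the methods. In PANDORA-seq coverage stayed at 1.84 RPM ± 0.858 (SD, n = 9) over base 1 and 7.77 RPM ± 2.06 over base 33 in the anticodon, and then rose to 29.6 RPM ± 10.7 over base 36 and 33.9 RPM ± 11.4 over base 53. In traditional libraries it was 22.3 RPM ± 8.42 (SD, n = 10) over base 1, 39.0 RPM ± 14.2 over base 33 and 51.6 RPM ± 42.3 over base 36, with the step at base 53, where it reached 158 RPM ± 93.3. Both methods thus covered the 3′ side of the tRNA more deeply than its 5′ side, but from a different base on.

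**Figure D2:**
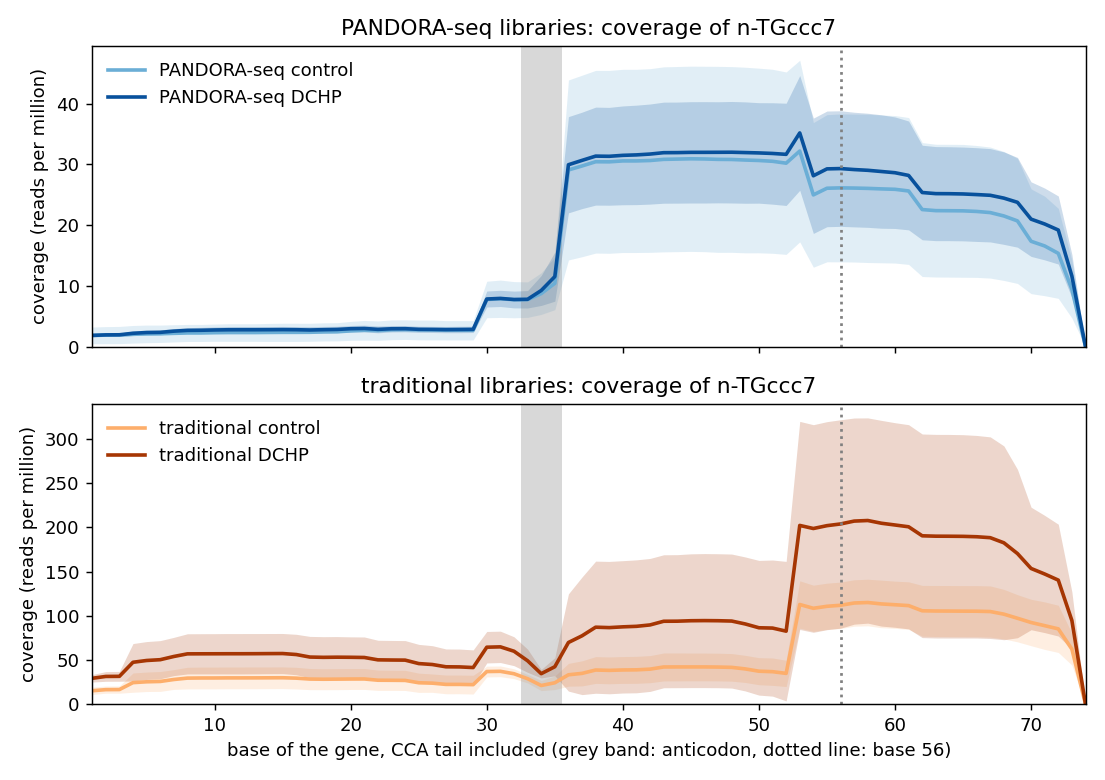
Coverage along n-TGccc7 in RPM, by method and exposure, with separate vertical scales. Lines are group means and bands 1 SD over libraries, the grey band is the anticodon and the dotted line base 56; PANDORA-seq coverage steps up at base 36 (to 29.6 RPM over 9 libraries) and traditional coverage at base 53 (to 158 RPM over 10 libraries).

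These steps came from the first bases of the reads. In PANDORA-seq 47.5% ± 6.84 (SD, n = 9) of the reads of the gene started at base 36, just behind the anticodon, 13.2% ± 3.20 at base 30 in front of the loop and 7.66% ± 3.44 at base 53 in the T loop. In traditional libraries 44.3% ± 7.58 (SD, n = 10) started at base 53, 10.6% ± 3.61 at base 1, 10.01% ± 4.36 at base 30, 6.45% ± 7.02 at base 36 and 4.59% ± 5.11 at base 4. Base 36 lies inside the anticodon loop, and the leading PANDORA-seq fragment from it ended at base 53, short of the tail.

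The share that started at base 36 was 58.6%, 41.0%, 47.2% and 49.3% in PANDORA-seq control and 55.6%, 42.7%, 51.7%, 39.4% and 41.8% in PANDORA-seq DCHP libraries. It was 1.88%, 2.66%, 15.6%, 5.76% and 3.15% in traditional control and 5.97%, 22.6%, 3.15%, 1.63% and 2.14% in traditional DCHP libraries. The methods did not overlap, and traditional control replicate 3 and traditional DCHP replicate 2 stood apart from the other 8 traditional libraries. The bases 36, 53, 56, 72 and 73 were singled out after these profiles had been seen. The 8 added measures were not planned, and also include mean length and the level of reads from base 1. They were tested in 4 comparisons each and adjusted over the 32. The share at base 36 was 43.2 percentage points higher in PANDORA-seq than in traditional control libraries and 39.1 points higher in DCHP libraries (both exact permutation p = 0.00794, adjusted 0.0181). The share at base 53 was lower by 40.8 points (6.26% ± 2.38, n = 4, against 47.0% ± 9.08, n = 5, SD; exact permutation, adjusted p = 0.0181) and by 32.8 points (8.79% ± 3.97, n = 5, against 41.6% ± 5.32, n = 5, SD; exact permutation, adjusted p = 0.0181). Taken as 5 pairs, the DCHP libraries gave an exact sign-flip p of 0.0625 for both shares, and likewise for mean length and for the levels of reads from bases 1 and 53. In the control comparison, leaving out any 1 of the 5 traditional libraries raised the adjusted p of both shares, and of the T loop mismatch, the mean length and the levels of reads from bases 1 and 53 described further on, to between 0.0571 and 0.0610, since 4 against 4 libraries cannot go below 0.0286 in an exact permutation test. Without both libraries that stood apart these control comparisons likewise missed the threshold (exact permutation, adjusted p = 0.0538), at 45.6 points for base 36, -43.2 points for base 53, -45.7 points for T at base 56, 6.65 nt for mean length, and -13.4 and -80.0 RPM for reads from bases 1 and 53. Exposure passed the test for neither share in either method (adjusted p = 0.368 to 0.912, exact permutation).

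**Figure D3:**
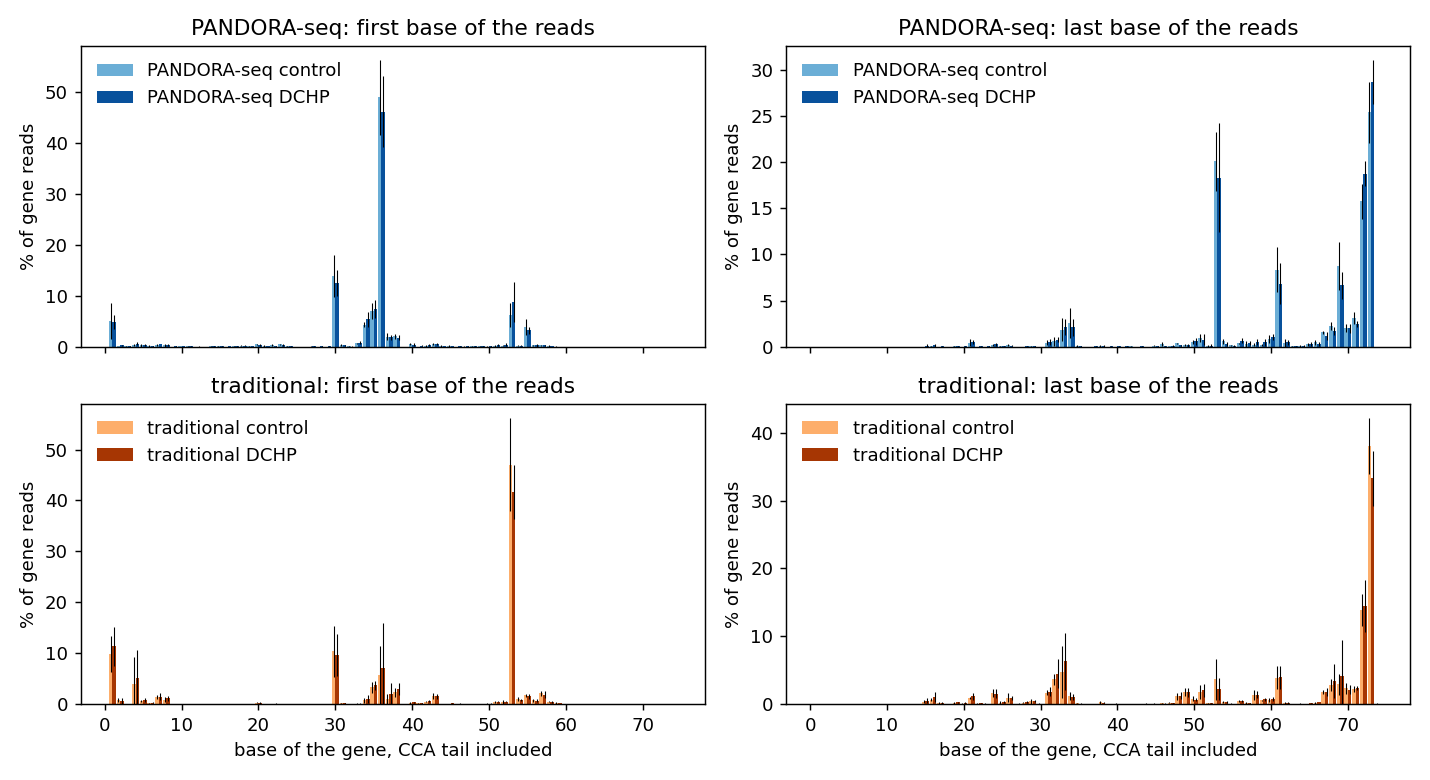
Share of the n-TGccc7 reads whose first base (left) and last base (right) falls on each base of the gene, by method and exposure. Bars are group means and lines 1 SD over libraries; first bases pile up at base 36 in PANDORA-seq (47.5% of the reads over 9 libraries) and at base 53 in traditional libraries (44.3% over 10), and last bases at 72 and 73 in both.

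Measured as a level, reads from base 53 stood at 78.1 RPM ± 32.4 (SD, n = 5) in traditional control and 119.9 RPM ± 44.9 (SD, n = 5) in traditional DCHP libraries, against 2.03 RPM ± 0.406 (SD, n = 4) and 3.56 RPM ± 1.80 (SD, n = 5) in PANDORA-seq (exact permutation between methods, adjusted p = 0.0181 in both). Per hairpin read of 20 to 24 nt this gap was lost, with PANDORA-seq at 0.854 times the traditional level in control and 1.04 times in DCHP libraries (adjusted p = 0.876 and 0.913, exact permutation). Per hairpin read of any length it stayed, at 0.126 and 0.171 times (adjusted p = 0.0363 and 0.0212, exact permutation). The same held per tRNA read, at 0.0848 and 0.0582 times (adjusted p = 0.0317 and 0.0195, exact permutation). Reads from base 36 did not pass in RPM: they held 18.7 RPM ± 10.7 (SD, n = 4) in control and 18.4 RPM ± 4.59 (SD, n = 5) in DCHP libraries of PANDORA-seq, and 9.27 RPM ± 9.56 (SD, n = 5) and 27.7 RPM ± 45.9 (SD, n = 5) in traditional ones (exact permutation between methods, adjusted p = 0.368 and 1). In control libraries PANDORA-seq stood 10.4 times as high per read on miRNA hairpins, 80.1 times per such read of 20 to 24 nt and 6.84 times per tRNA read, all of which passed (exact permutation, adjusted p = 0.0212, 0.0212 and 0.0195). In DCHP libraries the same ratios were 3.11, 18.8 and 1.08, of which the second passed (exact permutation, adjusted p = 0.0794, 0.0212 and 0.937). The mean of the traditional DCHP libraries rested on traditional DCHP replicate 2, with 110 RPM against 3.68 to 9.76 RPM in the other 4. Without it the level in DCHP libraries was higher in PANDORA-seq by 11.2 RPM (exact permutation, adjusted p = 0.0169). In traditional control, replicate 3 held 26.2 RPM against 3.88 to 7.61 RPM in the other libraries. Without that library the control difference between methods was 13.6 RPM in place of 9.42 RPM, and did not pass.

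The last bases piled up in the tail. Reads that ended at base 73, after the CC of the tail, made up 27.2% ± 3.15 of the PANDORA-seq reads (SD, n = 9) and 35.7% ± 4.58 of the traditional reads (SD, n = 10), and those that ended at base 72, after its first C, 17.4% ± 2.18 and 14.2% ± 3.03. Reads that reached base 74, the last base of the tail, were rare. Over all libraries 45 reads ended at base 74, all of them traditional, against 30777 at base 73 and 13649 at base 72. A mismatch at base 74 was allowed, and was seen in 21.4% ± 41.6 of these reads (SD over 10 traditional libraries), so not all carried a full CCA. Of the reads of a library that ended in the tail, 0% to 0.446% reached base 74 (median 0.0193%). For the summed other tRNA genes of the reference the matching share was 0.293% to 3.41% (median 1.37%). In PANDORA-seq a further 19.1% ± 4.72 of reads ended at base 53, 7.59% ± 2.21 at base 69 and 7.51% ± 2.30 at base 61. In traditional libraries 5.57% ± 3.88 ended at base 33 and 4.06% ± 1.58 at base 32, inside the anticodon loop.

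Of the 8 measures, the share of reads ending at base 72 or 73 was the one that passed for exposure in PANDORA-seq. It was 44.2%, 40.8%, 42.5% and 37.2% in control and 47.4%, 50.9%, 44.8%, 45.7% and 48.6% in DCHP libraries, with no overlap. The means were 41.2% ± 2.999 (SD, n = 4) and 47.5% ± 2.41 (SD, n = 5), a difference of 6.27 points (exact permutation p = 0.00794, adjusted over the 32 comparisons 0.0181). In 6 of the 9 fits that left out 1 library it did not pass. Each fit without a DCHP library was among them, with a difference of 5.43 to 6.94 points (exact permutation p = 0.0286, adjusted 0.0610). That p is the smallest that 4 against 4 libraries allow, so these fits cannot decide whether the difference rests on 1 library. The fit without control replicate 4 gave 4.94 points (exact permutation p = 0.0357, adjusted 0.0762). Among reads spanning the anticodon the difference was 9.48 points and did not pass either (exact permutation, adjusted p = 0.190). The median marker sums also stood higher in PANDORA-seq DCHP than in control libraries, at 2.22 against 1.57 RPM for sperm, 7.60 against 6.12 RPM for epididymal epithelium, 11.3 against 8.68 RPM for muscle, 0.140 against 0.132 RPM for blood and 30.1 against 15.7 RPM for liver, and their part in the difference was not tested. In traditional libraries the same difference was -4.09 points (47.8% ± 4.12 against 51.9% ± 5.72, SD, n = 5 each; exact permutation, adjusted p = 0.368). Between methods this share differed by -10.7 points in control (exact permutation, adjusted p = 0.0339) and -0.317 points in DCHP libraries (adjusted p = 0.990), and among reads without mismatch by -1.74 points (adjusted p = 1) and 8.95 points (adjusted p = 0.0195). The control difference did not pass once any 1 of its 9 libraries was left out (-12.3 to -8.74 points, exact permutation, adjusted p = 0.0571 to 0.0762), nor without both libraries that stood apart (-12.3 points, adjusted p = 0.0538). Those of these fits without a traditional control library gave an exact permutation p of 0.0286, the smallest that 4 against 4 libraries allow.

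Fragment lengths followed the starts. PANDORA-seq reads peaked at 18 nt (20.5% ± 4.92 of the reads, SD, n = 9) and again at 34 nt (7.58% ± 1.83), 37 nt (9.61% ± 2.25) and 38 nt (12.6% ± 1.47). Traditional reads peaked at 21 nt (28.1% ± 5.04, SD, n = 10) and 20 nt (12.4% ± 1.88), with a lower peak at 32 nt (6.94% ± 2.03). The mean length was 29.8 nt ± 1.19 (SD, n = 4) in control and 29.9 nt ± 0.592 (SD, n = 5) in DCHP libraries of PANDORA-seq, against 23.3 nt ± 0.722 and 24.1 nt ± 1.54 (SD, n = 5 each) in traditional ones. PANDORA-seq reads were longer by 6.43 nt in control and 5.80 nt in DCHP libraries (exact permutation, adjusted p = 0.0181 in both). Among reads spanning the anticodon they were longer by 3.32 and 5.22 nt, which did not pass (exact permutation, adjusted p = 0.0508 in both).

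**Figure D4:**
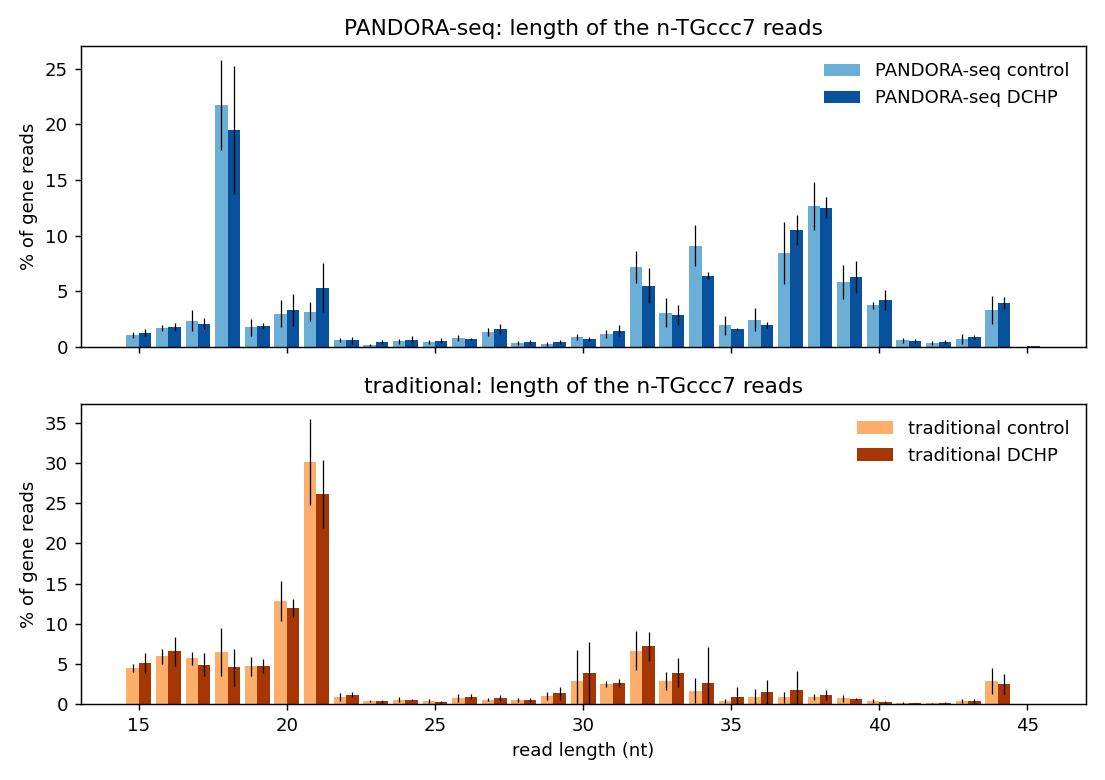
Length of the n-TGccc7 reads as a share of all reads of the gene, by method and exposure. Bars are group means and lines 1 SD over libraries; PANDORA-seq reads peak at 18 and 37 to 38 nt and traditional reads at 20 to 21 nt.

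Base 56 was read differently by the 2 methods. Of the PANDORA-seq reads that covered it, 7.88%, 4.33%, 0.901% and 0.568% had T in place of A in control and 0.386%, 1.40%, 3.43%, 1.47% and 1.70% in DCHP libraries. In traditional libraries T stood there in 32.3%, 58.0%, 44.8%, 57.6% and 48.5% of the reads in control and 54.7%, 25.2%, 41.1%, 51.8% and 48.2% in DCHP libraries. The methods did not overlap, and the lowest traditional share, in DCHP replicate 2, rested on 8723 reads (95% Wilson interval 24.3% to 26.1%). The highest PANDORA-seq share, in control replicate 1, rested on 1078 reads (95% Wilson interval 6.42% to 9.65%). Among reads with any mismatch at base 56, T made up 97.0% in traditional control and 96.9% in traditional DCHP libraries, with C and G at 1.60% and 1.44% in the former. In PANDORA-seq, with 137 and 112 such reads, T made up 92.0% in control and 75.0% in DCHP libraries, where G made up 24.1%. These shares pool the reads of a group, and 85 of the 126 reads with T in PANDORA-seq control came from replicate 1.

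The difference between methods was 44.8 percentage points in control (3.42% ± 3.43, n = 4, against 48.2% ± 10.6, n = 5, SD) and 42.5 points in DCHP libraries (1.68% ± 1.101 against 44.2% ± 11.8, SD, n = 5 each). Both had an exact permutation p of 0.00794 and an adjusted p of 0.0181, and the pairs of DCHP libraries a sign-flip p of 0.0625. Exposure did not pass in either method (exact permutation, adjusted p = 0.473 in PANDORA-seq and 0.721 in traditional libraries). In traditional libraries the next base, leaving out base 74 of the tail with its 45 reads, was base 45, with a mismatch in 5.24% ± 1.44 (SD, n = 10) of the reads over it, and the median base had 0.404%. In PANDORA-seq base 56 stood at 2.86% ± 2.40 (SD, n = 9), base 6 at 1.99% ± 1.79, base 45 at 0.987% ± 0.359 and the median base at 0.208%.

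**Figure D5:**
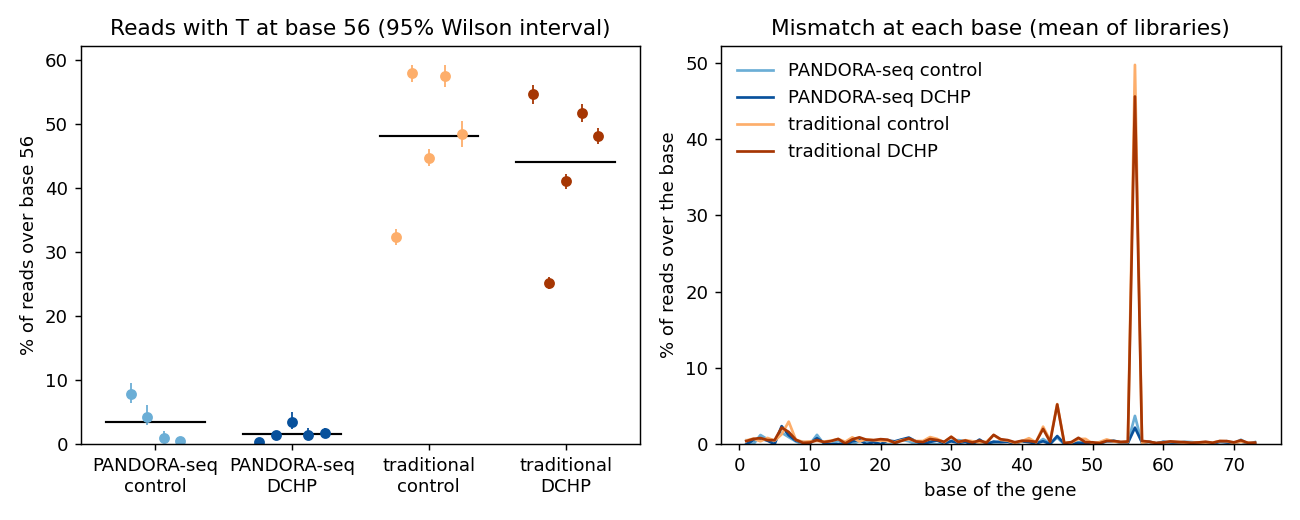
Reads with T at base 56 among those that cover it, per library with 95% Wilson intervals and group means as lines (left), and the share of reads with any mismatch at each base, as the mean over the libraries of a group (right). Traditional libraries lie at 25.2% to 58.0% and PANDORA-seq libraries at 0.386% to 7.88%, and base 56 stands above all other bases of the gene in the traditional groups.

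The gap was also seen in fragments that begin and end alike. Reads from base 53 to base 72 or 73, the fragments printed above, had T at base 56 in 5.67% ± 3.23 (SD, n = 9) of PANDORA-seq and 52.4% ± 9.84 (SD, n = 10) of traditional reads. Reads from base 30 to base 61, which hold the whole anticodon, had it in 1.43% ± 1.80 and 63.9% ± 6.21. Reads from base 36 to base 72 or 73 had it in 1.75% ± 3.10 and 26.5% ± 18.6, with traditional libraries ranging from 1.29% to 55.6%. As the share of a library's reads that match without mismatch, the methods gave 89.9% ± 2.78 (SD, n = 4) in control and 91.3% ± 0.892 (SD, n = 5) in DCHP libraries of PANDORA-seq, against 55.4% ± 5.92 and 58.4% ± 3.26 (SD, n = 5 each). With groups that did not overlap this measure reached an adjusted p of 0.0529 (exact permutation p = 0.00794, the smallest that the comparisons can give, adjusted over 20) and so did not pass. In DCHP libraries it was 0.0397 without traditional replicate 2 or 5 (exact permutation), and without replicate 5 it was the same for the share of 29 to 34 nt.

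The 5′ end of the tRNA gave fewer reads. Reads starting at base 1 made up 2.71% to 10.2% of the reads in PANDORA-seq and 4.89% to 16.3% in traditional libraries, and reads ending in the anticodon loop 3.03% to 10.5% and 7.60% to 23.3%. Reads of 29 to 34 nt, a size typical of fragments cut in the anticodon loop, made up 13.99% to 24.5% and 14.2% to 29.2%. None of the 20 comparisons of these 3 measures, the share ending in CCA and the share without mismatch passed after adjustment, and 5 had an unadjusted p under 0.05 (exact permutation tests). Ends in CCA could not be compared between methods at this depth, since traditional DCHP libraries held 1 to 7 such reads among 7040 to 11759 and PANDORA-seq DCHP libraries had 1069 to 1937 reads of the gene in all. The share starting at base 1 differed by -6.53 points between PANDORA-seq and traditional DCHP libraries (4.82% ± 1.43 against 11.3% ± 3.86, SD, n = 5 each; exact permutation p = 0.0159, adjusted 0.0794, and 0.0397 without traditional replicate 2).

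The share of reads starting at base 1 was planned and did not pass for exposure in traditional libraries. It was 11.3% ± 3.86 in DCHP and 9.86% ± 3.61 in control libraries (SD, n = 5 each, exact permutation, adjusted p = 0.626). All reads of the gene stood 1.79-fold higher in traditional DCHP libraries (exact permutation, adjusted p = 0.208). As a level, an added measure, reads starting at base 1 held 10.9, 18.3, 15.1, 11.5 and 20.4 RPM in traditional control and 26.6, 26.4, 35.6, 26.3 and 31.9 RPM in traditional DCHP libraries. All DCHP libraries lay above all controls, and the means were 29.3 RPM ± 4.23 and 15.2 RPM ± 4.16 (SD, n = 5 each), a 1.93-fold difference (exact permutation p = 0.00794, adjusted over the 32 added comparisons 0.0181). Per read on miRNA hairpins the fold was again 1.93 with an adjusted p of 0.0508, per hairpin read of 20 to 24 nt 1.92 with an adjusted p of 0.0677, and per tRNA read 1.44 with an adjusted p of 0.0317 (exact permutation). Among reads spanning the anticodon the difference was 0.165 RPM (exact permutation, adjusted p = 1). That setting leaves out reads from base 1 that end before base 35, such as bases 1 to 31 and 1 to 32. The method differences in these reads likewise shrank, to -0.294 RPM in control and -0.449 RPM in DCHP libraries. It thus cannot decide whether the exposure difference holds. Marker levels also stood higher in the traditional DCHP libraries: the median sum was 544 RPM against 253 RPM in control for the sperm hairpins, 1403 against 1178 RPM for epididymal epithelium, 4015 against 2763 RPM for muscle, 23.0 against 11.6 RPM for blood and 3101 against 2277 RPM for liver. The ranges of the groups overlapped for all 5 lists, and their part in the difference was not tested. Without traditional control replicate 3 and DCHP replicate 2 together the difference was 14.8 RPM (exact permutation p = 0.0286, adjusted 0.0538), and 4 against 4 libraries cannot go below that p. In PANDORA-seq the same reads held 1.84 RPM ± 0.228 (SD, n = 5) in DCHP and 1.84 RPM ± 1.38 (SD, n = 4) in control libraries (exact permutation, adjusted p = 1). That control mean rested on replicate 2, with 3.74 RPM against 1.97, 0.763 and 0.903 RPM in replicates 1, 3 and 4. Without replicate 2 the DCHP libraries stood higher by 0.633 RPM, which did not pass. The difference between the methods in this exposure effect was not tested.

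A few fragments carried much of the signal. The 6 of highest mean RPM made up 47.1% of the reads of the gene in PANDORA-seq and 40.4% in traditional libraries. In PANDORA-seq they were bases 36 to 53 (6.27 RPM, 16.2% of the gene), 36 to 73 (3.73 RPM), 36 to 72 (3.09 RPM), 36 to 69 (1.94 RPM), 30 to 61 (1.73 RPM) and 35 to 73 (1.47 RPM), all without mismatch. In traditional libraries they were bases 53 to 73 with A56T (32.3 RPM, 14.3%) and without it (24.8 RPM, 10.9%), 53 to 72 without (12.5 RPM) and with A56T (9.79 RPM), 4 to 33 (6.39 RPM) and 1 to 32 (5.64 RPM). No fragment was in both lists.

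Bases 36 to 53, the leading PANDORA-seq fragment, held 4.30 to 10.6 RPM in PANDORA-seq and 0.216 to 9.73 RPM in traditional libraries, so that the methods overlapped. The read from base 53 to base 73 with A56T, the leading traditional fragment, held 20.8 to 52.4 RPM in traditional and 0 to 0.390 RPM in PANDORA-seq libraries, and the same fragment without mismatch 11.8 to 45.4 RPM and 0.601 to 2.43 RPM. Bases 4 to 33 varied among the traditional libraries from 0.124 RPM in control replicate 5 to 24.5 RPM in DCHP replicate 3, with 17.2 RPM in control replicate 1, and held 0.0349 to 0.240 RPM in PANDORA-seq.

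Whether exposure changed single fragments was tested over the 20000 sequences of highest mean expression in each method, with reads of any length on miRNA hairpins as library size. Of the 969 distinct n-TGccc7 sequences in PANDORA-seq 5 were among these, and of the 3159 in traditional libraries 21. None of them passed the edgeR quasi-likelihood test at an adjusted p under 0.1 and a fold above 2, where 0.01% of all sequences passed in PANDORA-seq (2 sequences) and 0% in traditional libraries. At an unadjusted p under 0.05 there were 0 of 5 and 4 of 21, beside 6.58% and 3.61% of all sequences. DESeq2 with size factors from the miRNA reads called none of them, where it called 0.7% of all sequences in PANDORA-seq and 0.1% in traditional libraries. DESeq2 with its own size factors called 0 and 1 of them (adjusted p = 0.0711), beside 0.45% and 0.725% of all sequences. In traditional libraries 20 of the 21 had a positive log2 fold change, as did 56.2% of all sequences (median 0.63, against 0.07 over all). Without traditional DCHP replicate 2 it was 17 of 21 and 48.5% (median 0.31, against -0.02). The 4 were bases 1 to 31, with a log2 fold change of 1.23 ± 0.52 (SE), and bases 36 to 68, 36 to 69 and 36 to 72, at 3.31 ± 1.46, 3.14 ± 1.37 and 2.78 ± 1.19 (SE), all with an edgeR adjusted p of 0.9999. The SE in this paragraph is approximate, the size of the log2 fold change divided by the square root of the edgeR F statistic. In traditional DCHP replicate 2 the fragment 36 to 69 held 28.6 RPM, against 0.233 to 0.835 RPM in the other DCHP libraries, and without that library none of the 21 had an unadjusted p under 0.05. The leading PANDORA-seq fragment, bases 36 to 53, changed by 0.10 ± 0.40 (log2, SE; edgeR adjusted p = 0.992).

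Per base of gene length n-TGccc7 was the 8th of the 32 tRNA genes in 3 of the groups, at 0.499 RPM per base in PANDORA-seq control, 0.542 in PANDORA-seq DCHP and 2.20 in traditional control libraries, and the 6th in traditional DCHP libraries, at 3.92 RPM per base. Among the 10 nuclear tRNA genes alone it was the 6th in those 3 groups and the 5th in traditional DCHP libraries. The median of all 32 tRNA genes, most of them mitochondrial, stood at 0.0587, 0.0832, 0.198 and 0.397 RPM per base. The genes whose log2 RPM over the 19 libraries was most like that of n-TGccc7 were the serine tRNA genes n-TSaga9, n-TStga1 and n-TStga2 (Pearson r = 0.946 each). n-TStga1 and n-TStga2 have the same sequence here and so the same counts, n-TSaga9 had nearly the same levels, and all points share the split between the methods. In these 3 genes the mean stood at 140 to 155 RPM in PANDORA-seq and 858 to 1190 RPM in traditional libraries.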

How the data were processed

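For each of the 19 libraries the authors deposited a table of the distinct read sequences left after adapter removal, with the length of each and its read count. Reads were 15 to 45 nt long and had been sequenced as single ends from gel-selected small RNA; no molecular identifiers were used, so intervals cover counting error only. Each sequence was matched, sense and with at most 1 mismatch, to small RNA genes taken from RefSeq loci and GENCODE transcripts (GRCm38). These were 32 tRNA genes (with CCA), n-TGccc7 among them, 2198 miRNA hairpins, 356 rRNA and 3532 other small RNA genes. Reference sequences and loci came from the RefSeq and GENCODE tables, and the sequence of n-TGccc7 was read from the Mettl26 transcript that contains it. A substitution gives the base of the gene, its position from 1 at the first base, and the base of the read.

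Levels were reads per 1000000 total reads (RPM). They and the fragment shares were compared with two-sided exact permutation tests (difference of means), adjusted by Benjamini-Hochberg over 32 tRNA genes, 20 shape comparisons or 32 added comparisons; the smallest p was 0.00794. Single sequences were tested with edgeR 4.0.16 (R 4.3.3), with DESeq2 1.42.0 as an alternative. The procedures were tested on simulated data. The members, lists and tests were chosen with earlier results of these data known. Fragments named are n-TGccc7's 6 of highest mean RPM in each method and the genes its 3 most correlated tRNA genes (log2 of RPM + 0.1); other fragments named were chosen after their values were seen. In the DCHP groups libraries of the same number deviated together between the methods (r = 0.167 to 0.422 in all 5 pairs), which the labels do not explain; in the other 3 comparisons 1 pair each passed 0.1. The study states that sperm RNA of both control and exposed sires was run through both methods, without saying which libraries share a male. The labels do not say whether libraries of a group came from separate males. The study describes its PANDORA-seq libraries as biological replicates; for the traditional libraries p-values measure the spread between libraries, which may be technical. Libraries of a group differed from each other beyond sampling noise in every pair.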

Additional observations from a re-analysis of the deposited data

Results flagged for a closer look

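Dixon's test was applied to 14 measures in each of the 4 groups wherever the values varied, 54 tests in all, of which chance alone flags about 1 in 20, and 7 values were flagged. PANDORA-seq control replicate 2 had 10.2% of its n-TGccc7 reads starting at base 1, against 2.71% to 3.86% in the other controls. PANDORA-seq DCHP replicate 3 had 8.64% ending in the anticodon loop, against 4.31% to 5.24%. Traditional control replicate 1 held 136 RPM of reads from base 53, against 62.4 to 65.9 RPM. Reads from base 36 were flagged in 1 library of each traditional group: control replicate 3 had 15.6% of its reads there (26.2 RPM), against 1.88% to 5.76% (3.88 to 7.61 RPM), and DCHP replicate 2 had 22.6% (110 RPM), against 1.63% to 5.97% (3.68 to 9.76 RPM).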

How the results depend on the processing

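Of 1012 values under alternative settings, 905 kept their side of the threshold and, where they had passed, their direction. A further change of sign was not counted where neither value passed, which was so for 51 values in 19 results. The denominator moved the method comparison of the level. PANDORA-seq over traditional was 1.12 (control) and 0.770 (DCHP) per read on miRNA hairpins, and 8.25 and 4.69 per such read of 20 to 24 nt. Per tRNA read it was 0.736 in control, which did not pass, and 0.248 in DCHP libraries, which did (exact permutation, adjusted p = 0.390 and 0.0127). Per tRNA read the difference between methods in the exposure effect was -1.57. Per 20 to 24 nt hairpin read, reads from base 1 gave 4.69 (control) and 2.10 (DCHP), and in DCHP libraries reads from base 36 gave 18.8 and from base 53 1.04. With the replicate block the level ratios were 0.221 (p = 0.125, exact) and 0.138 (p = 0.0625, exact), and T at base 56 differed by -44.7 and -42.5 points (adjusted p = 0.267, exact). The block also ended the other passing calls among the added measures, since the smallest exact p of 4 or 5 pairs is 0.125 or 0.0625. Control and DCHP libraries of a method share only a number. Whether control libraries of the same number share a male between the methods is not known. Among reads spanning the anticodon, T at base 56 differed by -52.4 and -51.8 points (exact permutation p = 0.00794, adjusted 0.0508 in both). That adjustment still ran over all 32 comparisons, among them starts at bases 36 and 53, which no such read can have. Ends at base 72 or 73 differed there by 1.02 points in control, and among exact matches by 8.95 points in DCHP libraries. Without traditional control 3 and DCHP 2, T at base 56 differed by -45.7 points in control (adjusted p = 0.0538, exact) and reads from base 36 by 11.2 RPM in DCHP libraries. DESeq2 with its own size factors called 1 traditional sequence of the gene, beside 145 of all 20000 (18 higher, 127 lower). Leaving out 1 library at a time, PANDORA-seq minus traditional DCHP ranged from -8.01 to -5.30 points for starts at base 1, -0.0494 to -0.0369 for CCA ends (too few reads to compare the methods), -6.40 to -2.65 for 29 to 34 nt and 31.99 to 34.02 for reads without mismatch, and -15.3 to 11.2 RPM for reads from base 36; T at base 56 in control ranged from -48.8 to -42.4 points. Where not stated, the cause was not tested. PANDORA-seq shares rested on 854 to 1937 reads of the gene in a library.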
